A study of Mus musculus with 9 samples.

Results

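The genes described here are 62 of the 55487 mouse genes in the count table that were higher at day 6 than in untreated PT-22 kidney cells by a wide margin and stayed near that level at day 12. They were chosen from the measured values. Counts were divided by the total of their library and expressed as CPM, and L is log2(CPM + 0.5) averaged over the 3 libraries of a day. A gene was kept when its day 6 mean was at least 3 CPM, its L rose by at least 2.5 between day 0 and day 6, and its L then moved by no more than 0.4 in either direction by day 12. In all, 74 genes met these values, and 12 of them were set aside by name, among them Grem1, Mgp, Tnfaip3, Tnfrsf1b, Wnt6, Col8a1, Slc40a1, Gm4070, Gm45338, 5930403N24Rik and 9130208D14Rik. Because all 3 days entered the choice, the levels of the 62 genes are given as a description, and no test of them is offered as evidence.

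PT-22 is a proximal tubule line of the mouse kidney, and every library came from a derivative that is Pax2-/-, Pax8fl/fl and Rosa-CreERT2 and that carries Pax8 in the pTRIPZ vector, from which doxycycline induces transcription. All were grown in medium with 3% serum. Day 0 cells were untreated. Day 6 cells had received 1 uM 4-hydroxytamoxifen, which activates Cre, and day 12 cells had then received 1 ug/ml doxycycline every 2 days; the labels give 2 days of 4-hydroxytamoxifen in the protocol but 6 days of depletion in the design. Each group held 3 libraries of polyadenylated RNA, called A, B and C, and the labels do not say whether these were separate cultures or more than 1 clone, so the spread between them may be technical.

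The design addresses loss and return of PAX8, but Pax8 RNA did not fall: it stood at 282, 280 and 282 CPM at day 0, 388, 395 and 396 at day 6, and 527, 535 and 521 at day 12. Pax2, deleted according to the genotype, was also detected, at 29.3, 29.7 and 33.5 CPM, then 46.5, 42.3 and 47.9, then 57.8, 57.2 and 52, so the counts showed neither the depletion nor the deletion that the labels give, and groups are called by their day. Counts over a whole gene do not separate a partly deleted allele or the vector copy from the rest. Libraries of vehicle-treated cells, of untreated cells at later days and of day 12 cells without doxycycline were not analysed here, so time in culture, each drug and PAX8 cannot be told apart. Library totals ran from 56397100 to 86765292 counts, and 1 count was worth 0.0115 to 0.0177 CPM. Of 18 proximal tubule markers, Lrp2 (378, 57.0 and 76.4 CPM at days 0, 6 and 12), Aqp1 and Gatm were well detected, while Slc34a1, Slc5a12, Slc22a6 and Kap had no count in any library and Hnf4a had at most a trace. In bulk RNA, more cells that express a gene and more RNA per cell cannot be told apart.

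The arginine vasopressin receptor V1A, encoded by Avpr1a, couples through Gq proteins to phospholipase C, which releases calcium from internal stores and activates protein kinase C. In the kidney it is best known from blood vessels, mesangial cells and collecting duct. The other genes encode, among others, secreted proteins, which reach plasma or act on nearby cells, matrix proteins, which bind or organise collagen, and proteins that bind or move actin.

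Avpr1a (ENSMUSG00000020123, GRCm38 chr10:122448499-122453452, plus strand) was the gene closest to absence at day 0. It had 2 counts in all at that time, both in library A, where it reached 0.0231 CPM. Libraries B and C had none, which at their depth allows up to 0.0464 and 0.0418 CPM. At day 6 it stood at 11.8, 12.9 and 12.6 CPM, and at day 12 at 13.4, 13.4 and 14.6 CPM. The day 0 libraries lay far below all later ones, and the day 12 libraries lay just above the day 6 libraries. L rose by 4.67 and then by 0.15. The first value is held down by the offset of 0.5 CPM, and the second is close to the median shift of all tested genes, 0.12. Per length, Avpr1a reached 7.14 ± 0.33 TPM (a unit scaled by transcript length as well as by library; SD, n = 3) at day 6, which placed it 43rd among the 62 genes.

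**Figure D1:**
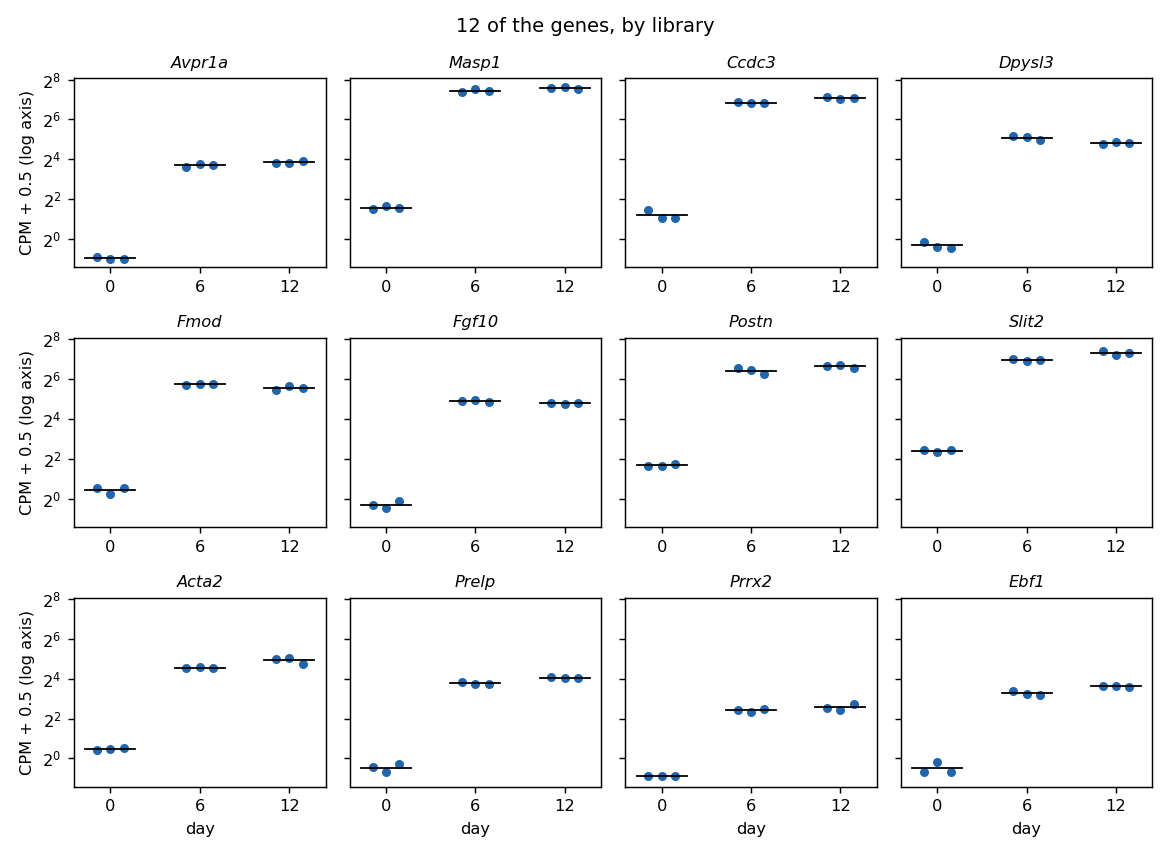
Each point is the level of a library, as CPM + 0.5 on a log axis, for 12 of the 62 genes at days 0, 6 and 12 (3 libraries a day, bars at the mean). In every panel the day 0 points lie below all others, from 0.00768 CPM on average for Avpr1a to 4.76 CPM for Slit2, and the day 6 and day 12 points lie close together.

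The 5 genes whose pattern over the 9 libraries was most like that of Avpr1a were Slit2, Pdgfrl, Postn, Prelp and Fgf10. Likeness was measured as the root mean square distance between the values of log2(CPM + 0.5), each gene centred on its own mean. The distances were 0.116 for Slit2, 0.134 for Pdgfrl, 0.14 for Postn, 0.209 for Prelp and 0.251 for Fgf10, against 1.12 for Vcam1, the least similar of the 62. All of these genes were chosen for the same shape, so the order mainly reflects how close the rise in L of a gene was to that of Avpr1a. The offset of 0.5 CPM holds that rise down, so the order depends on the offset. In mean CPM, Avpr1a rose 1616-fold from its 2 counts at day 0. Slit2 rose 26.1-fold, Pdgfrl 47.2-fold, Postn 31.8-fold, Prelp 59.4-fold and Fgf10 96.6-fold.

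Since the genes were chosen for moving together, the start of each gene was examined. RefSeq windows on GRCm38.p6, running from 250 bases before to 50 after an annotated start, were found for 51 of the 62 genes, with 69 windows in all. The windows of Avpr1a and of 4 genes with a motif match described further on are shown 5′ to 3′ on the gene's strand. Capitals mark TATAAA in the first 4 windows, together with CCAAT read on the opposite strand for Avpr1a, and the CArG box in that of Myl9.
Avpr1a, chr10:122448249-122448548, plus strand: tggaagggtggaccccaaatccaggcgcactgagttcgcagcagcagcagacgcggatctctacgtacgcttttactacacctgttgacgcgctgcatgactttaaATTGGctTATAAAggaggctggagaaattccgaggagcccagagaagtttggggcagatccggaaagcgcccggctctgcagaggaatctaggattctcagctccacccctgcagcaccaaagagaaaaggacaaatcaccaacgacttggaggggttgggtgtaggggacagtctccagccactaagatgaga
Slit2, chr5:47982905-47983204, plus strand: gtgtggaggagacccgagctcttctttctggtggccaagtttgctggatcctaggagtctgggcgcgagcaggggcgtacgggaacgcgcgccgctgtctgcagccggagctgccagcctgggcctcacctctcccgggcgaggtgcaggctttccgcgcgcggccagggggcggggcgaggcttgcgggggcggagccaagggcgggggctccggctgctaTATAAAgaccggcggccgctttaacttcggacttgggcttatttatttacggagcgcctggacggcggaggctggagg
Postn, chr3:54360857-54361156, plus strand: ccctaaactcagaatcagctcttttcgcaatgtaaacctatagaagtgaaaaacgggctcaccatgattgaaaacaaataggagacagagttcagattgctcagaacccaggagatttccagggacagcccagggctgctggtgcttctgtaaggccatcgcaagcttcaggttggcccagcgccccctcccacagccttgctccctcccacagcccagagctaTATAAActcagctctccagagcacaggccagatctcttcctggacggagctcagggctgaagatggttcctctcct
Abca1, chr4:53159846-53160145, minus strand: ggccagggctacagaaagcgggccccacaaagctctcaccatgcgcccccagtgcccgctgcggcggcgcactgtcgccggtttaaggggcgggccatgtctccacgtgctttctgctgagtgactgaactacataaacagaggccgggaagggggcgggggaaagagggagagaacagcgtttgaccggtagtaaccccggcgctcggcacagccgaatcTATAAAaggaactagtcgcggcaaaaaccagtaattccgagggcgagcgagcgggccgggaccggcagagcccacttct
Myl9, chr2:156775214-156775513, plus strand: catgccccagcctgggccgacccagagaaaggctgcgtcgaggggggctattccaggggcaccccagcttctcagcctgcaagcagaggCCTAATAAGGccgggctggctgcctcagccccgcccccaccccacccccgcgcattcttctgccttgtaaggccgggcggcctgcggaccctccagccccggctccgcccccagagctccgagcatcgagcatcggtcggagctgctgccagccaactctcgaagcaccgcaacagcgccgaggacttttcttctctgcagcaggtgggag

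The 9 secreted proteins outside the matrix group held the largest rise and the highest level of all 62 genes. Masp1, a serine protease of the lectin pathway of complement, had the largest rise. It stood at 2.31, 2.58 and 2.47 CPM at day 0, at 169, 183 and 171 at day 6, and at 188, 197 and 186 at day 12. The rise in L was 5.89, or 71.1-fold in mean CPM, and the day 12 libraries lay slightly above those of day 6 on column sums, though not on average with TMM library sizes, a scaling that allows for differences in RNA composition. Ccdc3, a secreted protein described in fat and endothelial cells, followed with 2.22, 1.56 and 1.55 CPM, then 115, 114 and 112, then 139, 130 and 136. Its exons are covered to 69.1% by a non-coding gene on the other strand, and the strand setting of the counting is not given in the sources used here, so the 2 genes cannot be told apart.

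Fgf10, a growth factor that signals through FGFR2 from mesenchyme to epithelium, was nearly off at day 0, with 0.288, 0.216 and 0.418 CPM. It reached 29.9, 30.9 and 28.4 CPM at day 6 and 27.0, 26.6 and 27.3 CPM at day 12, so the 3 last libraries lay just under those of day 6. Slit2, the ligand of ROBO receptors that guides axons and limits ureteric budding, went from 4.84, 4.61 and 4.84 CPM to 129, 119 and 125 and then to 168, 150 and 157. Slit2 was thus still higher at day 12 in every library. Gc, the plasma carrier of vitamin D, went from 0.853, 0.664 and 0.753 CPM to 22.7, 24.2 and 21.2, and stood at 20.3, 20.3 and 18.5 at day 12.

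Gpx3, the glutathione peroxidase that the proximal tubule secretes into plasma, was the most abundant of the 62 genes on either scale. It was already present at day 0, at 76.2, 78.5 and 79.8 CPM. It stood at 512, 527 and 528 CPM at day 6 and at 576, 577 and 576 at day 12, so that it was raised 6.68-fold from a clear base and was not switched on from absence. Selenop, which carries selenium in plasma, behaved alike, with 20.4, 19.1 and 20.5, then 131, 145 and 132, then 164, 169 and 169 CPM. Both are selenoproteins. Of the remaining secreted proteins, C1ra, the mouse C1r protease of complement, went from 8.98 to 71.3 and 61.1 CPM on average, and Lcn2, a siderophore-binding protein used as a marker of tubule injury, from 0.406 to 5.97 and 4.71 CPM.

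The 5 matrix genes included a pair of neighbouring genes for small leucine-rich proteoglycans, which bind collagen fibrils. Fmod, encoding fibromodulin, stood at 0.922, 0.68 and 0.963 CPM at day 0, at 52.5, 53.3 and 54.3 at day 6, and at 42.8, 50.5 and 47.4 at day 12. Prelp, its neighbour 115840 bases away on chromosome 1, stood at 0.231, 0.124 and 0.307 CPM, then 13.7, 12.8 and 12.7, then 16.2, 16 and 15.9. The day 12 libraries of Fmod lay below those of day 6 and the day 12 libraries of Prelp lay above them, so the pair differed in its later direction on this scale.

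Postn, encoding periostin, a matrix protein of remodelling tissue, rose from 2.64, 2.57 and 2.86 CPM to 93.1, 88.0 and 75.3 at day 6, with 102, 104 and 94.8 at day 12. Fbln2, encoding fibulin 2, was the most abundant of the group by CPM and went from 19.9, 21.3 and 16.8 to 127, 133 and 134 and then to 153, 147 and 148. Olfml3, a secreted olfactomedin-like protein, had the most positive later change of all 62 genes, at 0.37 in L: 1.59, 1.47 and 1.28 CPM, then 14.0, 15.8 and 14.1, then 19.7, 18.8 and 18.8.

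Membrane proteins formed the largest group, with 14 genes. Nrp2, a co-receptor of class 3 semaphorins and of VEGFs, had the most CPM after Gpx3 and Marcks, with 56.2, 57.6 and 58.9 at day 0, 386, 392 and 391 at day 6, and 338, 295 and 302 at day 12. Its 3 day 12 libraries lay below those of day 6. Abca1, which exports cholesterol to apolipoprotein A-I, went from 7.5, 7.46 and 8.58 CPM to 145, 134 and 149 and then to 159, 120 and 162. Library B of day 12 lay below, and libraries A and C above, all day 6 libraries. Vcam1, the adhesion receptor for leukocyte integrins, lay at the lower edge of the later band, with a change of −0.37 in L: 9.77, 10.4 and 11.3 CPM, then 67.9, 68.1 and 63.2, then 47.6, 52.4 and 54.4.

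The other membrane genes were below Nrp2 and Abca1 at day 6. Ghr, the growth hormone receptor, went from 7.69 to 67.5 and 56.8 CPM on average. Flrt2, an adhesion protein that binds UNC5 receptors, went from 3.66 to 24.1 and 27.1, and Aqp5, a water channel of secretory glands, from 2.39 to 18.3 and 16.8. Ramp1, which pairs with the calcitonin receptor-like receptor to bind CGRP, Rnf43, a ubiquitin ligase that removes Frizzled receptors, and Scara3 lay between 10.8 and 11.7 CPM at day 6. Gypc (glycophorin C) reached 11.1 CPM, Clec2d 5.04, the tetraspanin Tspan8 4.97, and the adhesion receptor Adgrg2 3.32, the lowest of all 62. Adgrg2 had 12 counts in all at day 0, so with Avpr1a it was among the few genes that were close to off.

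Of the 8 genes of the cytoskeleton and of contraction, Marcks was the most abundant by CPM. It encodes an actin-binding substrate of protein kinase C, and stood at 53.4, 53.7 and 52.9 CPM at day 0, 482, 474 and 482 at day 6, and 555, 506 and 525 at day 12. Tmsb4x, encoding thymosin beta 4, which binds free actin, had the smallest rise of all 62 genes, 2.52 in L. Its libraries read 30.5, 29.9 and 26.2 CPM, then 171, 167 and 164, then 183, 187 and 176. Its transcript is short, and per length it came next after Gpx3, at 462 ± 8.9 TPM at day 6 against 544 ± 12.

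Acta2 and Myl9, encoding smooth muscle actin and the regulatory myosin light chain, both stood higher at day 12 than at day 6 in every library. Acta2 read 0.841, 0.896 and 0.935 CPM, then 22.4, 23.9 and 22.5, then 30.8, 32.0 and 26.6. Myl9 read 3.55, 3.86 and 3.77 CPM, then 25.3, 29.5 and 26.4, then 33.0, 34.8 and 32.8. Dpysl3, a microtubule-associated protein of growing neurites, moved the other way after a rise of 5.42 in L, with 0.38, 0.263 and 0.237 CPM, then 35.2, 34.1 and 31.3, then 27.0, 28.7 and 27.7. Tnnt2, cardiac troponin T, reached 7.36 CPM and Inka2, an inhibitor of the kinase PAK4, 9.66 CPM at day 6. Pakap, an anchoring protein of protein kinase A, read 0, 0.773 and 0 CPM at day 0, then 17.8, 21.4 and 21.4, then 16.5, 15.5 and 16.4. It shares 81.5% of its exon bases with another entry of the same name on the same strand, which stood at 327, 426 and 422 CPM, so its counts depend on how shared reads were divided.

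The 5 transcription factors were low but clearly present after day 0. Prrx2, a homeobox factor of limb and craniofacial mesenchyme, had 9 counts in all at day 0 and 4.84 CPM at day 6. Ebf1, best known from B cells and also expressed in stromal cells, read 0.115, 0.371 and 0.126 CPM, then 9.95, 8.97 and 8.42, then 11.7, 11.9 and 11.6. Foxq1, a forkhead factor, read 0.0922, 0.247 and 0.167 CPM, then 8.37, 9.33 and 9.64, then 7.33, 7.81 and 6.03. The day 12 libraries lay above those of day 6 for Ebf1 and below them for Foxq1. Foxq1 shares 66.1% of its exon bases with a gene on the other strand, which had no count at days 6 and 12. Mecom, a zinc finger factor of nephron development and blood stem cells, went from 2.39 to 18.9 and 20 CPM, and Cebpa, a regulator of liver, fat and myeloid genes, from 0.807 to 9.50 and 9.55.

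Among 8 genes for enzymes and GTPases, Rasl11a, a small Ras-like GTPase, stood out in level and came after Gpx3 and Tmsb4x per length, at 283 ± 8.8 TPM at day 6. It read 18.0, 17.7 and 19.0 CPM, then 171, 182 and 167, then 136, 139 and 141, so every day 12 library lay below every day 6 library. Ppp1r3c, which targets protein phosphatase 1 to glycogen, went from 2.44 to 27.2 and 23.7 CPM. Egln3, a prolyl hydroxylase of hypoxia-inducible factors, went from 1.48 to 11.8 and 9.59. Ugt1a6a, a glucuronosyltransferase, went from 5 to 40.7 and 32.2, and shares its last exons with the other genes of the Ugt1a cluster, of which Ugt1a1 went from 20.4 to 4.67 and 6.99 CPM. Gbp6, an interferon-inducible GTPase, Aspa, which cleaves N-acetylaspartate, the adenylate kinase Ak5 and the glycosyltransferase Galnt15 reached between 5.95 and 11.9 CPM at day 6.

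The non-coding RNAs were Mir100hg and AW112010. Mir100hg (chr9:41327077-41716994, plus strand) is the host transcript of miRNAs, and read 1.00, 1.13 and 1.37 CPM, then 15.4, 13.0 and 18.6, then 10.5, 15 and 10.8. Its day 6 and day 12 libraries overlapped. Small RNA was not measured, so the levels of the miRNAs themselves were not analysed here. Both miRNAs shown here lie within the host transcript in RefSeq, and their mature sequences have the seed, bases 2 to 8, in capitals; the seeds differ.
mmu-miR-100-5p, chr9:41531437-41531458, plus strand: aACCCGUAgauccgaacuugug
mmu-miR-125b-5p, chr9:41581940-41581961, plus strand: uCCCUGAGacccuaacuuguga

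The remaining 11 genes have no role in common. Crybg1 read 56.5, 57.3 and 53.9 CPM, then 331, 350 and 332, then 274, 264 and 264. Plekho2, which has a pleckstrin homology domain, read 15.2, 16.7 and 14.0 CPM, then 90.2, 99.4 and 93.6, then 75.0, 77.7 and 76.0. Both were lower at day 12 than at day 6 in every library. Pdgfrl, a protein with similarity to the PDGF receptor, read 0.726, 0.479 and 0.558 CPM, then 26.3, 29.3 and 27.5, then 24.9, 29.1 and 25.6, with overlap between the later days. Zcchc24, Stac, Medag, Tcp11l1, Pid1, Fam180a and Syt1, the calcium sensor of synaptic vesicles, lay between 8.63 and 37.5 CPM at day 6. Commd1b was the least steady of the 62, at 3.7, 13.7 and 12.8 CPM at day 6, and shares 89.2% of its exon bases with B3gnt2 on the same strand.

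**Figure D2:**
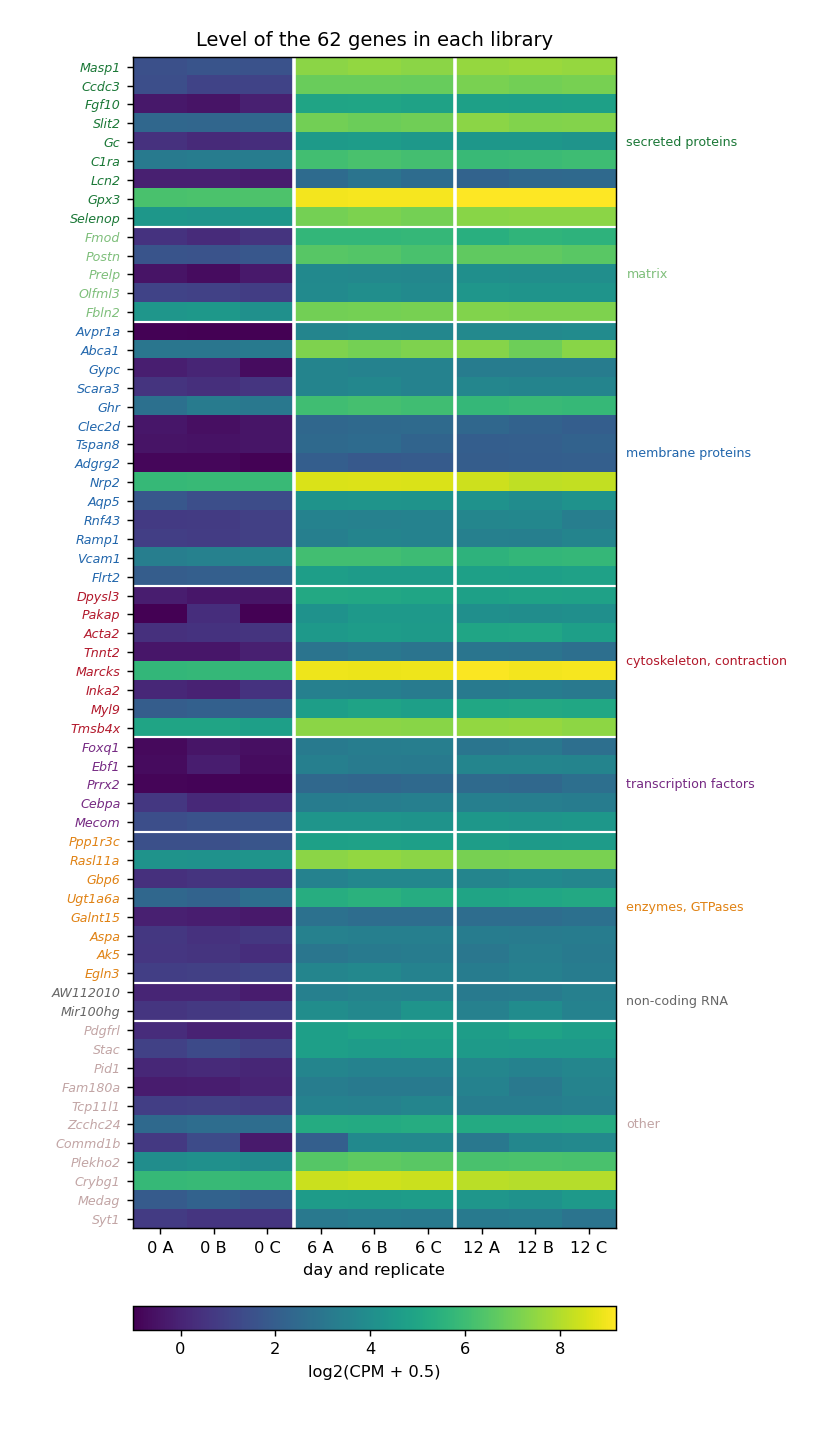
Level of each of the 62 genes (rows, grouped by role) in each of the 9 libraries (columns, day and replicate) as log2(CPM + 0.5), from dark (low) to yellow (high). The day 0 columns are darker in every row, while the day 6 and day 12 columns differ little; Commd1b and Pakap show the widest spread between libraries of a day.

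As a group, the 62 genes held 443 to 453 CPM at day 0, 3972 to 4070 CPM at day 6 and 3944 to 4067 CPM at day 12, or 0.0447%, 0.401% and 0.4% of all counts. Gpx3, Marcks, Nrp2 and Crybg1 made up 43.1% of the day 6 sum. The word on or off fits few of the genes: 60 of the 62 were detected in all 3 day 0 libraries, and none was without counts at day 0. Any count at all made a gene detected here. The day 0 mean was under 1 CPM for 27 genes, under 5 CPM for 47 and under 10 CPM for 52. Of all genes tested, 25.3%, 36.8% and 43.5% were under these levels. The rise in L ran from 2.52 to 5.89 with a median of 3.01, against 0.02 for all 16353 genes tested. The genes lay on 19 chromosomes, and 60 of them are annotated as protein-coding.

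All 62 genes passed the filter on low counts. In edgeR's quasi-likelihood test, with Benjamini-Hochberg adjustment across the genes tested, all 62 were higher at day 6 than at day 0 with an adjusted p under 0.05, where 33.5% of all genes tested were higher. All 62 were also higher at day 12 than at day 0, against 34.7%. In all 62 the lowest day 6 library lay above the highest day 0 library, against 36% of genes tested. The choice of the genes fixed these counts, and nothing is read from them.

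**Figure D3:**
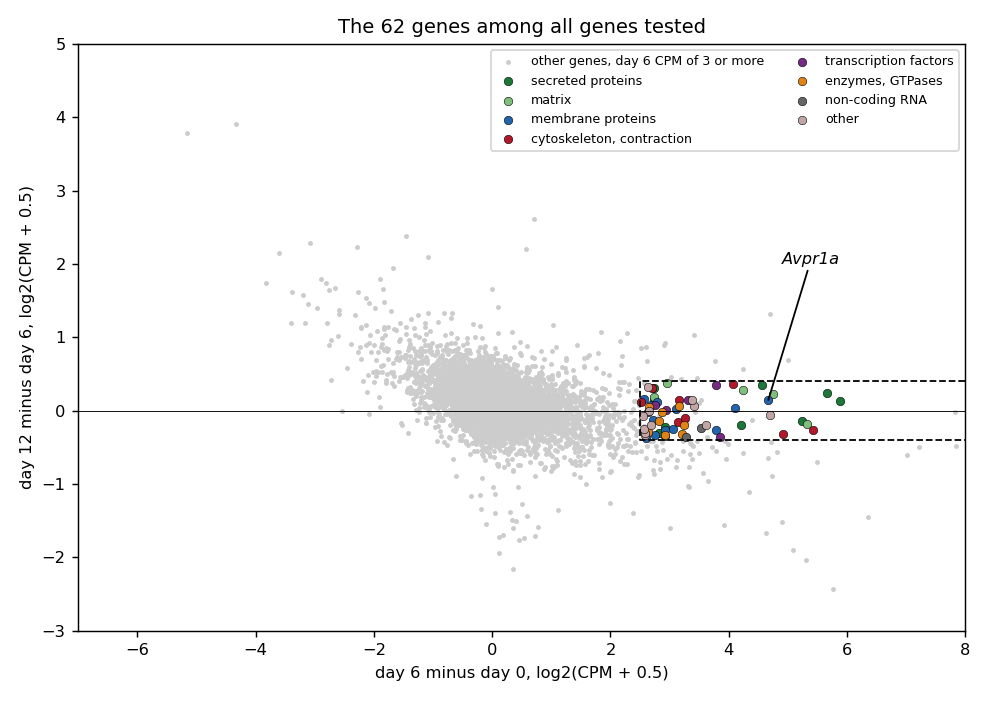
Change in L from day 0 to day 6 (x axis) against change from day 6 to day 12 (y axis) for genes tested with at least 3 CPM at day 6; coloured points are the 62 genes by role and the dashed lines mark the limits of the choice, 2.5 and −0.4 to 0.4. Grey points inside the lines are genes set aside by name, 4 genes lie outside the axes, and Avpr1a stands at 4.67 and 0.15.

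The band of the later change was narrow, and where a gene stood within it depended on the scaling. On column sums, the later change in L ran from −0.37 to 0.37 with a median of −0.04, and was positive for 28 genes and negative for 34. All tested genes had a median of 0.12 on this scale but of 0.01 with TMM library sizes, so a gene that kept pace with the others stood at about 0.12. On TMM library sizes 17 of the 62 were positive. In the edgeR test of day 12 against day 6, 5 of the 62 were higher, against 22.6% of all genes tested, and 29 were lower, against 22.7%. On the deposited TPM (limma), 15 were higher, against 48.9% of all genes tested, and 12 were lower, against 5.37%. Libraries of the later days did not overlap for 16 genes that were higher, against 48.3% of genes tested. They did not overlap for 25 that were lower, against 13%, and 21 genes overlapped. The band lay from −0.4 to 0.4 on column sums, where all tested genes had a median of 0.12. TMM scaling lowered day 12 further against day 6. The choice thus largely fixed how many of the 62 were higher or lower, and nothing is read from these counts.

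The 5 genes called higher at day 12 than at day 6 were Olfml3, Acta2, Slit2, Myl9 and Selenop, with log2 fold changes from 0.17 to 0.25, and each was also higher on column sums and on TPM. The 29 called lower ran from −0.14 for Zcchc24 to −0.52 for Tspan8. They included 7 of the 14 membrane genes, 5 of the 8 enzymes and GTPases, 4 of the 9 secreted proteins, 2 of the 8 cytoskeletal genes, 1 of the 5 matrix genes, 1 of the 5 transcription factors, both non-coding RNAs and 7 of the 11 genes with no common role, where 22.7% of all genes tested were lower. The choice bounded these calls as well, and roles were not tested against each other. Inka2, Pdgfrl and Zcchc24 among them were slightly higher at day 12 on TPM. Avpr1a was in neither class, with a log2 fold change of 0.02 ± 0.071 (SE).

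Many genes rose as much and then moved out of the band. In all, 142 genes met the limits on level and rise, of which 74 (52.1%) lay in the later band, 55 had moved below it and 13 above it. After the name rules these numbers were 62, 51 and 8, of 121. The limits cut through a continuous range. Just inside the limit of the rise stood Tmsb4x (2.52) and Syt1 (2.54), and just outside Olfml2b and Atoh8 (2.48 each). At the lower edge of the band stood Vcam1 (−0.37) and Mir100hg (−0.36) inside, and Cx3cl1 and another entry of Pakap (−0.41 each) outside. At the upper edge stood Olfml3 and Acta2 (0.37 each) inside, and Gpm6b (0.43) and Fbln7 (0.45) outside. The nearest genes to the limit of 3 CPM were Adgrg2 (3.32) and Prrx2 (4.84).

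Libraries of a day were close, but the 62 genes varied more than others, most of all at day 0. Levels were not matched in this comparison. At day 0, 47 of the 62 were under 5 CPM, against 36.8% of genes tested. For days 0, 6 and 12, the median SD of log2(CPM + 0.5) between libraries was 0.109, 0.0717 and 0.0716, against 0.0586, 0.0586 and 0.0633 over all genes tested. When the same rule was applied to the libraries of 2 letters and read in the third, it chose 63, 61 and 60 genes with A, B or C left out. Of these, 58, 57 and 55 were among the 62, and 48 met every limit in the left-out letter in each case. The 62 were chosen from these same libraries, so the overlap was largely built in. The spread between letters may be technical, so these counts do not show whether the choice would hold in separate cultures.

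The promoter windows of the 62 genes differed from those of tested genes in CpG content, and were closer to those of other genes that started low. The ratio of observed to expected CpG was under 0.6 in 42 of the 69 windows, or 60.9%. The share was 33.5% over 14102 windows of tested genes, 56.1% over tested genes with a day 0 mean under 5 CPM, and 66% over 50 windows of genes that rose as much and then moved below the band. TATAAA starting 35 to 20 bases before the annotated start, on the gene's strand, was found in 4 windows, those of Abca1, Cebpa, Postn and Slit2. These are 5.80% of windows, against 1.15% for tested genes, 2.23% for tested genes that started low and 6% for the genes that fell back. In the Avpr1a window shown above TATAAA began 137 bases before the start, outside that range. These shares rest on few windows, genes can have several, and no test of them was made.

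Further motifs were searched on both strands anywhere in the window. The AP-1 motif TGANTCA was in 4 windows (5.80%, against 5.42% of tested and 7.81% of all 32851 windows), CCAAT in 21 (30.4%, against 37.8% and 37.4%), and TATAAA in 9 (13.0%, against 7.41% and 13.6%). The C/EBP motif TTNNGNAA was in 28 (40.6%, against 31.3% and 40.7%), the TEAD motif GGAATG in 5 (7.25%, against 12.3% and 14.7%), and the GC box GGGCGG in 30 (43.5%, against 61.1% and 35.7%). The E-box CACGTG was in 6 (8.7%, against 9.68% and 7.15%), and the NF-kB motif in 7 (10.1%, against 10.7% and 8.46%). The CArG box, the site of serum response factor, was in 2, those of Myl9 and Aspa (2.90%, against 1.3% and 1.63%). The letters GCGTGAC, found in sites of the paired domain, were in none, against 3.66% and 2.09%. A match describes the letters only and shows no binding.

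Genes next to the 62 were a measure that the choice had not used. The nearest tested protein-coding gene on each side of each of the 62 was taken, which gave 120 genes outside the set at a median distance of 72718 bases. Of these, 57 rose between day 0 and day 6 (47.5%, against 33.5% of all genes tested and 37.0% of tested protein-coding genes), 36 fell, where 31.4% of all genes tested fell, and 27 passed in neither direction. At least a 2-fold rise was seen for 27, or 22.5%, against 9.66% and 9.83%. Levels of the neighbours were not matched to those of the genes tested, and no test of these shares was made. Some of the 27 were low even at day 6, such as Actrt3 (0.161 CPM) and Foxf2 (0.194 CPM). Slc7a2 had no count at day 0 and passed the filter on low counts only through the later days. The shares are therefore a description. Of these 27, 21 stayed within 0.4 in L at day 12, 5 moved below and 1 above. Several of the 27 were near the floor, where the offset of 0.5 CPM keeps a gene within this band. Lama4, for example, went from 0.109 CPM at day 6 to 0.212 CPM at day 12 and moved by 0.22 in L. Nothing is therefore read from the number that stayed. The neighbours named next were chosen after their values were seen.

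Fas, the death receptor gene 35076 bases from Acta2, rose from 0.127, 0.263 and 0.181 CPM to 8.21, 9.23 and 8.16 (log2 fold change 5.52 ± 0.15 (SE), edgeR adjusted p = 7.96e-14) and stood at 5.84, 6.29 and 5.66 at day 12. C1s1, the complement protease gene 6902 bases from C1ra, rose from 21.6, 21.0 and 20.5 CPM to 219, 242 and 220 (3.42 ± 0.042, edgeR adjusted p = 8.85e-18), with 161, 165 and 160 at day 12. Slc7a2, a transporter of cationic amino acids 3904 bases from Pdgfrl, had no count at day 0 and 1.91, 1.80 and 1.83 CPM at day 6, at least 137-fold higher against a floor of 3 counts over the day 0 group. Lgr5, a receptor for R-spondins, rose beside Tspan8 at a distance of 229052 bases, from a trace to 1.74 CPM. Gbp10, beside Gbp6, reached 2.02 CPM, though genes of this family are similar in sequence and can share reads. Ccdc152, which reached 0.319 CPM, overlaps Selenop on the other strand.

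Others fell beside a gene that rose. Wnt7a, 91441 bases from Fbln2, fell from 3.95 to 0.822 CPM on average (−2.28 ± 0.17 (SE), edgeR adjusted p = 9.54e-09), and Rbm44, 9027 bases from Ramp1, from 0.239 to 0.00992 CPM. Among the 62 themselves, Selenop and Ghr were neighbours on chromosome 15, 37252 bases apart, as were Fmod and Prelp on chromosome 1.

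**Figure D4:**
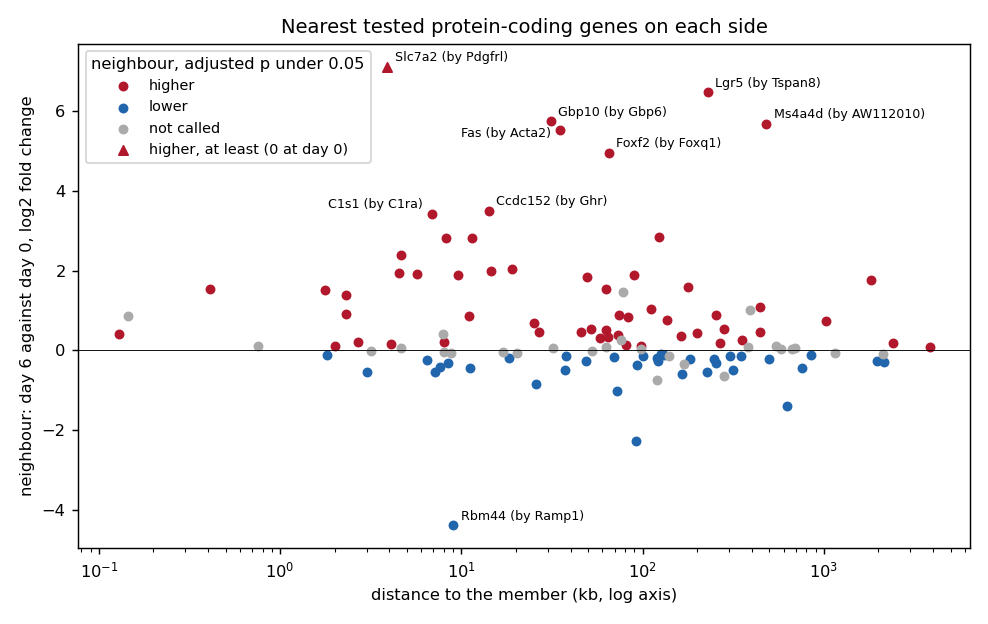
Log2 fold change from day 0 to day 6 (y axis) of the nearest tested protein-coding gene on each side of the 62 genes, against its distance in kb (log x axis); red points rose, blue points fell and grey points did not pass an adjusted p of 0.05 in edgeR. Of 120 neighbours 57 are red and 36 blue, and those at least 8-fold changed are named; the triangle is a lower bound for Slc7a2, which had no count at day 0.

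The partners of Avpr1a were read from a list of 29 vasopressin, oxytocin and Gq signalling genes, of which 19 were tested and Avpr1a was the only member of the 62. Between day 0 and day 6, 10 of the 19 rose, Avpr1a included, and 6 fell, where 33.5% of all genes tested rose and 31.4% fell. Between day 6 and day 12, 8 rose and 6 fell, against 22.6% and 22.7%, and between day 0 and day 12, 9 and 7, where 34.7% of all genes tested rose and 31.7% fell. The median log2 fold changes of the list were 0.14, 0.02 and 0.26, against 0.02, 0.01 and 0.03 over all genes tested. Avp, the ligand, had counts in a single day 12 library, and Oxt, Avpr1b and Prkcb had none anywhere. Avpr2, Oxtr, Rgs4 and Rgs5 were at trace levels. So of the vasopressin and oxytocin receptors, Avpr1a was the only receptor above 0.1 CPM in any library.

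The G protein subunits that receptor V1A uses were present throughout and fell slightly by day 6. Gnaq went from 94.7 ± 2.0 to 74.2 ± 1.4 CPM (SD, n = 3 each; log2 fold change −0.36 ± 0.031 (SE), edgeR adjusted p = 7.1e-08), with 80.7 ± 2.2 at day 12. Gna11 went from 91.3 ± 2.3 to 80.6 ± 4.0 CPM (−0.19 ± 0.036, edgeR adjusted p = 0.000321) and rose again to 95.8 ± 3.0 at day 12 (0.11 ± 0.036, edgeR adjusted p = 0.0183). Of the phospholipases, Plcb1 rose from 22.4 ± 0.45 to 32.4 ± 0.74 CPM (0.53 ± 0.042, edgeR adjusted p = 2.67e-08), Plcb3 fell by 0.16 on the log2 scale and Plcb4 passed only later, rising by 0.35 between day 6 and day 12. Of the calcium channels of internal stores, Itpr1 rose from 70.0 ± 1.1 to 108 ± 2.8 CPM and Itpr3 from 240 ± 9.0 to 340 ± 11, while Itpr2 fell from 15.9 ± 0.91 to 10 ± 1.1. Prkce and Prkcd, both protein kinases C, rose by 0.28 and 0.12 by day 6. Prkcd then fell by 0.35 to end below day 0 (−0.23), and Prkca passed only later, rising by 0.31.

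Rcan1 and Rgs2, which both dampen the signal, fell by day 6 and came part of the way back. Rcan1, an inhibitor of calcineurin that calcium signalling induces, fell from 128 ± 7.1 to 53.9 ± 1.8 CPM (−1.26 ± 0.041 (SE), edgeR adjusted p = 5.22e-13) and rose again to 95.5 ± 2.9. Rgs2, which speeds GTP hydrolysis by Gq, fell from 2.59 ± 0.25 to 0.863 ± 0.10 CPM (−1.59 ± 0.17, edgeR adjusted p = 8.66e-07) and rose to 1.98 ± 0.43. The calcineurin-dependent factors Nfatc1 and Nfatc2 rose, Nfatc1 from 14.2 ± 1.2 to 25.4 ± 0.60 CPM and Nfatc2 from 6.33 ± 0.68 to 13.4 ± 1.1, and both fell again by day 12, to 21.5 ± 0.73 and 7.59 ± 0.27. Gna14 and Rgs16 rose too but stayed under 0.5 CPM in every library. Lnpep, which cleaves vasopressin and oxytocin, did not pass between day 0 and day 6 (172.8 and 192 CPM) and fell by 0.55 by day 12.

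Postn and Acta2 are also markers of stromal and smooth muscle cells, so the other markers of these cells were read beside them. Of 12 stromal markers 7 were tested, of which 5 rose, Postn included, and 1 fell by day 6. Of all genes tested, 33.5% rose and 31.4% fell by day 6. Without Postn the stromal markers summed to 7.86 to 8.31 CPM at day 0, 7.91 to 8.25 at day 6 and 13.0 to 15.1 at day 12. The even sum at day 6 held a fall beside rises from low levels. Dcn went from 4.75 to 0.43 and 5.42 CPM and Pdgfrb from 0.0737 to 2.38 and 1.62. Col3a1 went from 0.00849 to 0.733 and 0.627 CPM, Meox1 from 0.0346 to 0.713 and 0.55, and Col1a2 from 0.101 to 0.25 and 0.147. Col1a1 did not pass by day 6. Thy1 had no count, and Pdgfra and Lum were under 0.1 CPM on average at each day. Of 12 smooth muscle and mesangial markers 7 were tested, of which 5 rose, Acta2 included, and 1 fell, and without Acta2 they summed to 40.8 to 42.5, 64.3 to 70.7 and 95.1 to 109.8 CPM. Tagln rose with Acta2, from 11.5 to 36.6 and 62.5 CPM, while Myh11, Myocd and Itga8 stayed under 0.1 CPM on average. The part of such cells in the results on Postn, Acta2 and Myl9 was not tested.

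Markers of other cells were mostly low. The calls given for them are day 6 against day 0, where 33.5% of all genes tested rose and 31.4% fell. The 10 endothelial markers summed to 5.15 to 5.80 CPM at day 0, 19.3 to 19.9 at day 6 and 15.4 to 16.1 at day 12 (5 of 6 tested rose), most of it Flt1, with Cdh5, Kdr and Cldn5 at or near 0. The 10 immune markers summed to 39.6 to 44.8, 23.7 to 27.2 and 30.2 to 31.2 CPM (1 of 4 tested rose and 2 fell), with Cd3e, C1qa and C1qb at 0. The 10 hepatocyte markers, relevant to Gc, Selenop, Masp1 and Cebpa, stayed between 0.289 and 0.443 CPM in sum in every library (1 was tested and passed in neither direction), with Ttr, Serpina1a and Ahsg at 0. The 8 podocyte markers summed to 435 to 447, 284 to 290 and 408 to 430 CPM (3 of 5 tested fell), and the 12 loop, distal and collecting duct markers to 5.03 to 5.57, 10.7 to 11.7 and 13.6 to 14.8 CPM (2 of 3 tested rose and 1 fell). The 12 squamous markers, most of it Sprr1a, summed to 7.73 to 10.1, 37.7 to 45.2 and 15.1 to 17.8 CPM (3 of 5 tested rose). The 18 proximal tubule markers summed to 585 to 680, 451 to 481 and 531 to 586 CPM (5 of 7 tested fell and 1 rose).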

How the data were processed

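Per the file headers, the authors deposited raw counts for each gene and library, which were whole numbers, and TPM for the same genes and libraries. Per the submitters' processing notes, the tools were STAR 2.7.8a, RSEM 1.3.3, FastQC 0.11.8 and cutadapt 2.3, with the build GRCm38. What each tool did, whether strand was counted and which annotation was used is not given in the sources used here. Entries for transgenes, 0.00204% to 0.00284% of the counts of a library, were left out.

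CPM were computed from the deposited counts and column sums. The test was edgeR 4.0.16 (R 4.3.3): filterByExpr by group, which left 16353 genes, TMM scaling and the quasi-likelihood F test in 1 fit of all 9 libraries with 6 residual degrees of freedom. Adjustment (Benjamini-Hochberg) ran across the genes tested with 0.05 as the threshold. The p-values measure the spread between libraries only, which may be technical. SEs were derived from the F statistic. Calls were checked on simulated counts. Alternatives used DESeq2 1.42.0, limma 3.58.1 on log2(TPM + 1), other scalings, other limits and left-out libraries.

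The 62 genes, the lists and the tests were chosen with earlier results of these data known, and roles were assigned after the genes were known. Values per library were given for Avpr1a, for the 12 genes highest in CPM at day 6, in rise and in TPM, and for the 3 at each end of the later change; others were named by role. Lists covered vasopressin and oxytocin signalling and markers of stromal, smooth muscle and mesangial, endothelial, immune, liver, podocyte, distal tubule, proximal tubule and squamous cells. Positions are from GENCODE M21 on GRCm38, promoter and miRNA sequences from RefSeq on GRCm38.p6.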

Additional observations from a re-analysis of the deposited data

How the results depend on the processing

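The number of genes that met the limits was 62, and 60 to 65 when a library was left out. It was 72 with an offset of 0.25 (all 62 among them), 46 with an offset of 1, 52 with TMM library sizes, 50 with DESeq2 size factors, 54 on TPM (46 shared), 48 with at least 10 CPM at day 6, and 60, 56 and 63 in letter A, B or C alone. Asking for a rise of 3 left 31, and a later change within 0.2 left 33. For day 12 against day 6, 5 of the 62 were higher and 29 lower; limma on TPM gave 15 and 12, and no filter on low counts gave 8 higher. Leaving out a library gave 4 to 7 higher and 27 to 31 lower. Of these calls 14.7% were higher, against 55.6% on TPM, where 90.1% of the calls over all genes were higher, against 50% by edgeR on counts and 60.5% with upper-quartile factors. The later change in L turned negative for Gpx3 (−0.00203) and Marcks (−0.00288) with size factors, and for Masp1 (−0.0052 and −0.0147) and Tmsb4x (−0.0148 and −0.0243) with TMM and with size factors; both settings change only the library sizes. Leaving out a library left 62 genes higher at day 6 and 62 at day 12 than at day 0, gave 52 to 57 neighbours that rose, and 16 to 17, 11 to 14 and 15 to 17 calls in the vasopressin list (16, 14 and 16 with all libraries). Plcb3 at day 12 against day 0 turned to 0.13 on TPM. Replicate letters shared between days did not pair the libraries (correlations of same-letter deviations from −0.0834 to 0.0783), and with the replicate block 5 of the 62 were higher and 29 lower at day 12 than at day 6. Genes with few counts at day 0, Avpr1a above all, have a rise whose size depends on the offset.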
